A study of Mus musculus with 7 samples.

Results

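Chromatin accessibility was examined at 9 genes of surface receptors that restrain or tune lymphocytes, Tigit, Cd96, Cd226, Pdcd1, Lag3, Havcr2, Btla, Cd200r1 and Klrg1, in splenic regulatory T cells (Treg cells) with and without Opa1. A peak belonged to a gene when it overlapped it, or when it lay within 100 kb with that gene the nearest protein-coding gene. This gave 75 of the 50213 deposited peaks, of which 38 lay within a gene, 7 covered a gene end and 30 lay outside. The farthest was 53064 bp from its gene, Btla, so no member lay close to the 100 kb limit. A peak in Tigit (chromosome 16, 43628693 to 43629065) also overlapped Zbtb20 and cannot be given to either gene. The assay was ATAC-seq: a transposase inserts adapters where DNA is open, so reads pile up at open sites. The cells were CD4+ and Foxp3-YFP+, CD45.2+ and CD45.1-, sorted from mixed bone marrow chimeras, hosts rebuilt with CD45.1+ marrow and CD45.2+ marrow at a ratio of 1:1. The CD45.2+ marrow was Foxp3-Cre in the wild type group (WT, 4 libraries) and Foxp3-Cre with floxed Opa1 in the knockout group (KO, 3 libraries), so both groups carried the Cre. This Cre is meant to act in cells that express Foxp3, and whether it acted in other cells was not tested. The labels used here do not state the age of the mice. Opa1 encodes a GTPase of the inner mitochondrial membrane.

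Receptors of this kind share a scheme. A ligand on a neighbouring cell engages the receptor, whose tail in most of them holds tyrosine motifs that recruit phosphatases or adaptors and so dampen signals from the T cell receptor. TIGIT, CD96 and the activating receptor CD226 compete for nectin family ligands such as CD155. PD-1 (Pdcd1), LAG-3, TIM-3 (Havcr2), BTLA, CD200R and KLRG1 each read other ligands. On Treg cells TIGIT, PD-1, LAG-3, TIM-3 and KLRG1 are known as features of activated or effector cells.

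Library totals in peaks ran from 1534394 to 3384325 counts. Of the peak counts 78.0% to 86.3% per library were even numbers, and the sources used here do not say how read pairs were counted. The highest total was that of KO replicate 1. WT replicates 2 and 3 had counts that agreed within sampling noise over 36418 peaks (chi-square p = 0.111), and less so over the 11332 most abundant of them, with mean counts from 50 up (p = 0.0385). Their mean was counted as 1 sample in each mean ± SD, so n = 3 in both groups. The WT SD is therefore not the spread of the 4 WT libraries, whose values are given singly. The tests kept all 7 libraries as separate samples. The only Opa1 peak had 33.8 to 37.9 CPM in WT and 29.1 to 42.6 in KO, and since the deleted exons are not given it does not check the genotype labels. All 6 Treg marker genes (Foxp3, Il2ra, Ctla4, Ikzf2, Cd4 and Cd3e) had peaks, with a summed level of 1413 to 1515 CPM in WT and 1450 to 1543 in KO. Of the myeloid markers Lyz2, Csf1r and Adgre1 had no peak. The summed level ran from 29.5 to 35.9 CPM in WT and 22.5 to 31.3 in KO for the myeloid list, and was 28.9 to 46.4 and 42.1 to 58.1 for the erythroid list, where Hbb-bs had no peak. NK cells and CD8 T cells also carry several of the 9 receptors. Of the NK markers Ncr1 had no peak, and the other 4 summed to 216 to 252 CPM in WT and 250 to 256 in KO. The CD8 list, Cd8a and Cd8b1, had 45.8 to 63.0 CPM in WT and 44.7 to 65.3 in KO. These lists ranged from 3 peaks (erythroid) to 74 (Treg), so their sums cannot be compared with each other. Per kb of peak, the mean of the 4 WT libraries was 59.2 CPM for the Treg list and 35.1 for the NK list. It was 27.2 for the erythroid, 22.02 for the myeloid and 19.6 for the CD8 list. What other cells added to the receptor values was not tested.

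The receptor loci differed widely in how open they were. Levels of different genes are compared here as CPM (counts scaled to library size) per kb of peak, as the mean over the 7 libraries. Summed over its peaks, Pdcd1 had 89.4 CPM per kb and Cd226 85.1, followed by Tigit (72.8), Cd96 (64.4), Cd200r1 (51.8), Btla (45.7), Havcr2 (39.8), Klrg1 (33.9) and Lag3 (29.3). Each gene's range over the 7 libraries overlapped that of its neighbour in this order, except that every library of Cd96 (60.2 to 73.6) lay above every library of Cd200r1 (45.1 to 57.9). Among the 13290 gene sums tested, Pdcd1 stood at percentile 82.4 of this density and Lag3 at 28.9. At 3 genes a single site held most of the counts. The Pdcd1 peak 2515 bp outside the gene (chromosome 1, 94034903 to 94035790) held 54.3% of the counts of that locus. A peak 8912 bp outside Klrg1 held 54.2%, and a peak inside Btla close to its higher-coordinate end held 52.3%. The most abundant peak of the other 6 genes held from 25.5% (Cd226) to 36.9% (Cd96).

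**Figure D1:**
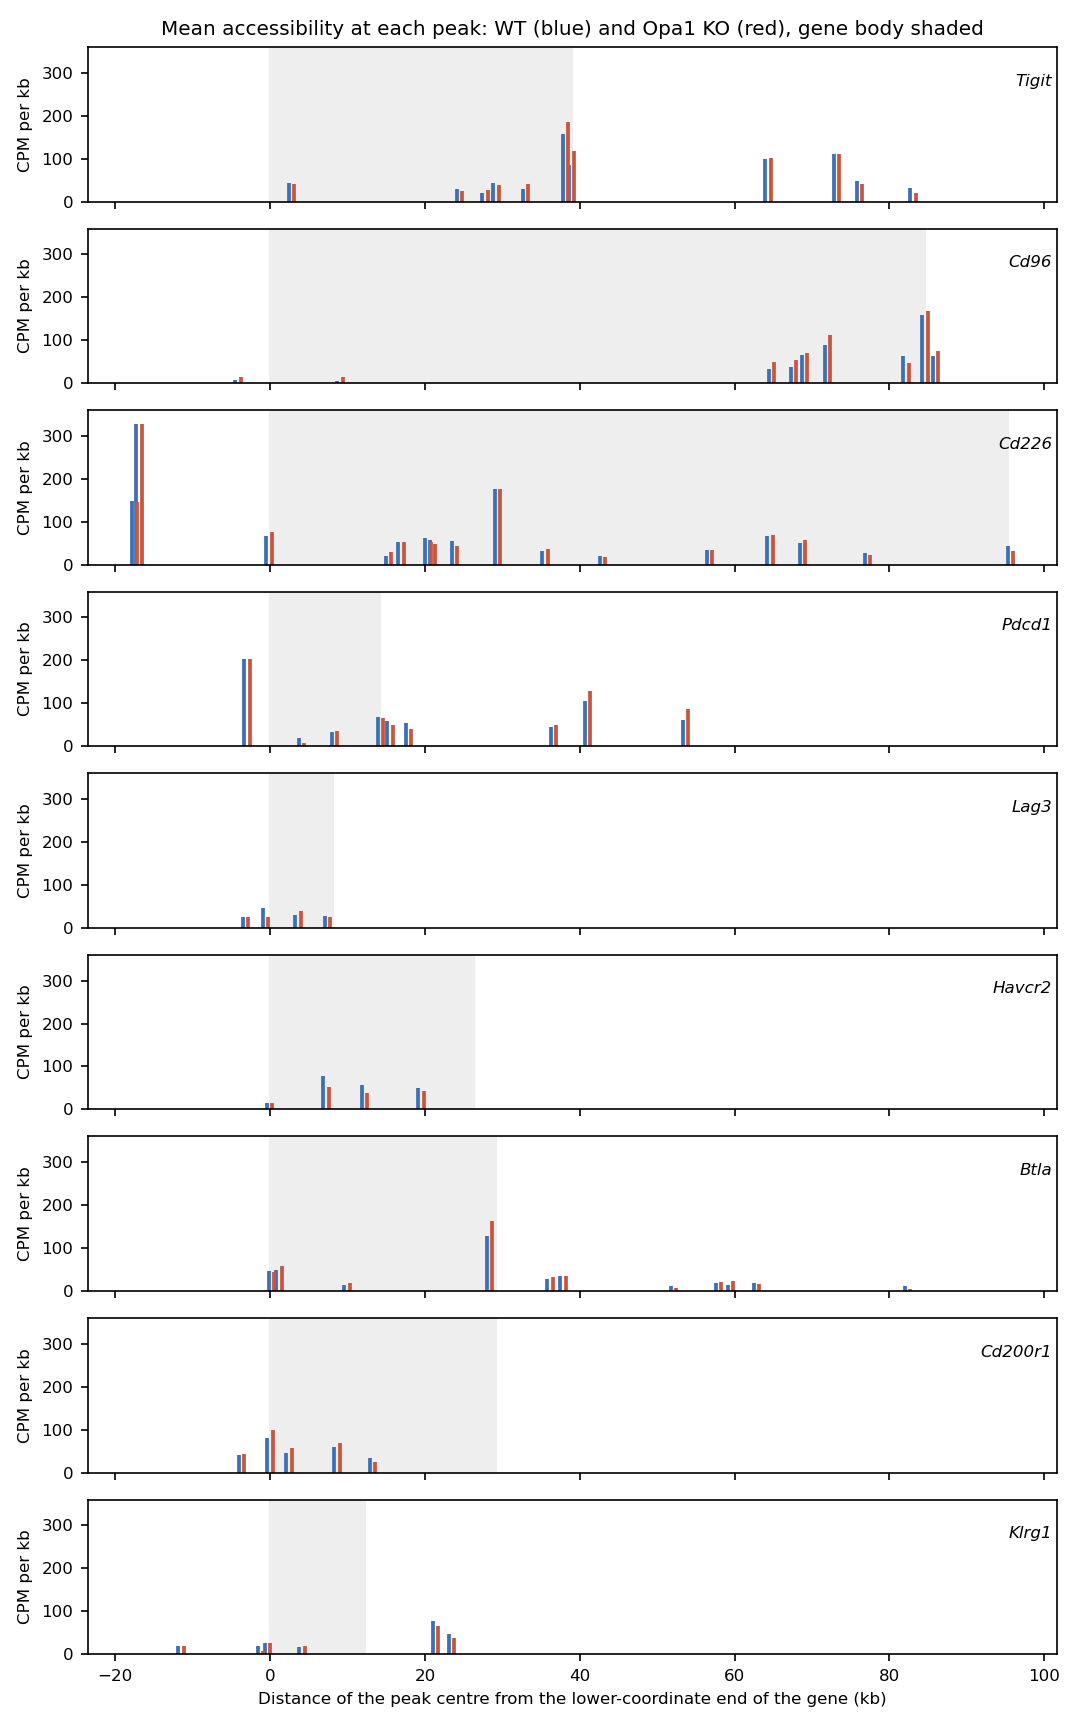
Mean accessibility in CPM per kb of peak (vertical axis) at each of the 75 receptor peaks against the distance in kb of the peak centre from the lower-coordinate end of its gene; blue lines are WT means, red lines KO means, shading is the gene body. The tallest site belongs to Cd226 (333 CPM per kb as the plain mean over the 7 libraries, which the lines do not show), and Lag3, Klrg1, Havcr2 and Cd200r1 have none above 100.

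Of the 9 genes 5 had a promoter entry in the RefSeq table of GRCm38.p6, the assembly that mm10 names. The 250 bases before the listed start are shown because each of these windows met a peak of the deposited set, which ties the accessibility values to sequence. Tigit (chr16:43664185-43664434, minus strand) and Havcr2 (chr11:46454681-46454930, plus strand) lay wholly inside a peak. Of Cd96 (chr16:46120249-46120498, minus strand) 176 bases did, of Pdcd1 (chr1:94052554-94052803, minus strand) 182, and of Btla (chr16:45224087-45224336, plus strand) 148. The starts of Tigit and Btla in this table lie inside the annotated gene, not at its end. Capitals mark every match to the motifs searched on both strands.
Tigit: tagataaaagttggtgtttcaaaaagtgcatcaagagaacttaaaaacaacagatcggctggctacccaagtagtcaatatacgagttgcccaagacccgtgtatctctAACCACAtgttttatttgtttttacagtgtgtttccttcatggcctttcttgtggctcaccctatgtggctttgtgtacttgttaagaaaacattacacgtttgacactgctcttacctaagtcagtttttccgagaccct
Cd96: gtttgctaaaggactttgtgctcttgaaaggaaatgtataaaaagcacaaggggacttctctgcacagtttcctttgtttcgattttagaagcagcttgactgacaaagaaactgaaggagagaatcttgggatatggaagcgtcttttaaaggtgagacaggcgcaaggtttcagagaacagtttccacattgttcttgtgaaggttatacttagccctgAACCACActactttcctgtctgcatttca
Btla: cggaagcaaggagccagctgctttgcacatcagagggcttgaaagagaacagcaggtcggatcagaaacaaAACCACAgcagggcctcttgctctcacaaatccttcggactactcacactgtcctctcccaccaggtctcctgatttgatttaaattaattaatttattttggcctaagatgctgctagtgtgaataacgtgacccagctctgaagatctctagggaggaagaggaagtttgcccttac
Havcr2: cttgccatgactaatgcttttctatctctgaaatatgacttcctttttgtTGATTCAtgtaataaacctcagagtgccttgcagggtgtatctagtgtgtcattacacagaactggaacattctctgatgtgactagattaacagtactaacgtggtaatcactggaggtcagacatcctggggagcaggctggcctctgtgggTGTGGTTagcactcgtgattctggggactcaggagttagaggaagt
Pdcd1: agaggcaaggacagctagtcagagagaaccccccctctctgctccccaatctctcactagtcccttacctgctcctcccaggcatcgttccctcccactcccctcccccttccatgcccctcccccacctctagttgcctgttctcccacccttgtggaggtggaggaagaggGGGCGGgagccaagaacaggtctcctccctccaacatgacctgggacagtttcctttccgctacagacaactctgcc
The RUNX motif TGTGGTT, or its reverse complement AACCACA, stood once in 4 of the 5 windows, Tigit, Cd96, Btla and Havcr2. RUNX factors regulate many T cell genes. The same letters were in 4.39% of the 32817 windows of this length in the table and in 3.36% of the 10965 windows that met a peak. Each of the 4 matches lay inside a peak, 141 bases before the listed start of Tigit, 29 before that of Cd96, 179 before that of Btla and 46 before that of Havcr2. Havcr2 also held 1 AP-1 motif (TGANTCA, in 6.75% of all windows and 4.09% of those that met a peak) and Pdcd1 1 GC box (GGGCGG, in 32.7% and 62.4%). No match was found to forkhead (TGTTTAC), T-box (AGGTGTGA), ETS (CCGGAAG), NF-kB, TCF (CTTTGAA) or NFAT (TGGAAAA) motifs. These stood in only 0.374% (NF-kB) to 15.8% (ETS) of the windows that met a peak, so their absence from 5 windows says little about these genes. The NF-kB and NFAT motifs share letters, and no match overlapped another. A match is a run of letters and does not show that a factor binds.

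The comparison of KO with WT asked whether loss of Opa1 altered accessibility at these loci. No receptor peak passed an adjusted p of 0.05. Of the 75 peaks 63 had enough counts for the test, and edgeR's quasi-likelihood test called 0 of them, where it called 0.0867% of all 38041 tested peaks (0.0473% higher and 0.0394% lower in KO). The other 12 had mean counts of 3.0 to 9.0 and were not tested. DESeq2 and limma-voom also called 0. An unadjusted p under 0.05 was reached by 8 of the 63, 4 higher and 4 lower in KO, a share of 12.7% against 9.47% of all tested peaks. Of the 63 fold changes 29 were above 0 and 34 below, with a median log2 fold change of -0.01, and over all tested peaks the median was -0.001 with 49.8% above 0. At 5 of the 63 (7.94%, against 9.36% of all tested peaks) WT and KO libraries were fully apart, at 1 with KO above (background 4.85%) and at 4 with KO below (4.51%). In a sorted population, a larger share of cells with an open site and a more open site in each cell cannot be told apart.

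**Figure D2:**
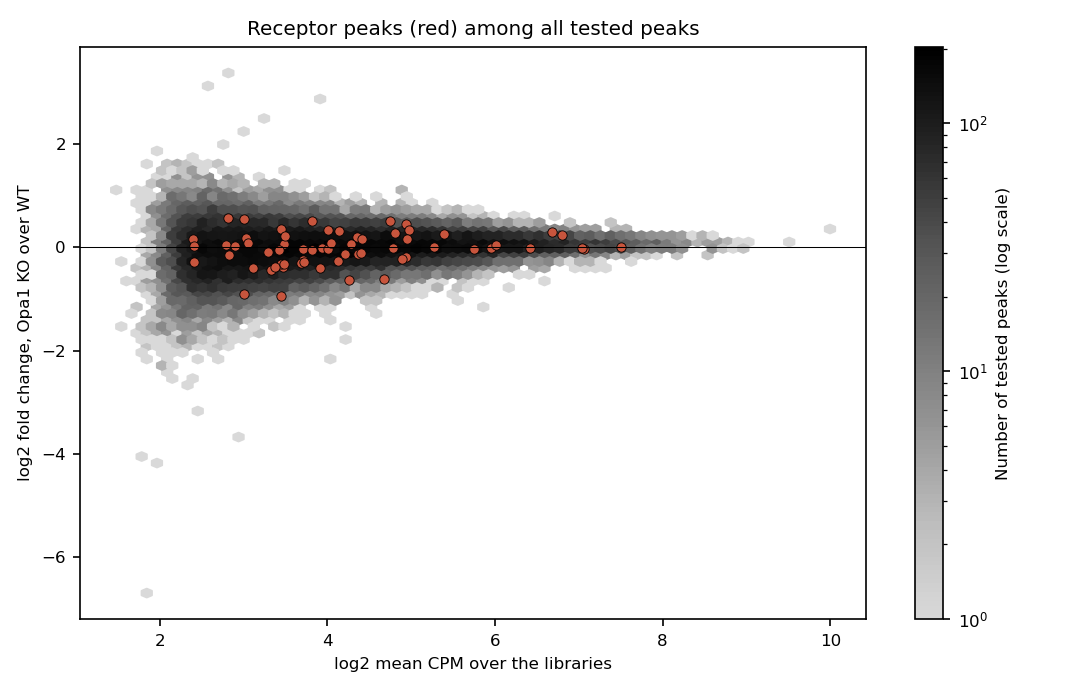
The log2 fold change of KO over WT (vertical axis) against log2 mean CPM over the 7 libraries (horizontal axis) for all 38041 tested peaks, shaded by their number on a log scale, with the 63 tested receptor peaks in red. The receptor peaks lie between -0.94 and 0.57, and none of them has an adjusted p under 0.05.

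Counts summed per gene gave the tightest limits. None of the 9 gene sums was called by edgeR, DESeq2 or limma-voom, where edgeR called 0.346% of the 13290 gene sums tested (0.0978% higher and 0.248% lower in KO), and 1 of the 9, Havcr2, had an unadjusted p under 0.05 (11.4% of all gene sums did). Here CPM is scaled to the total of the tested gene sums. The groups did not overlap at Cd96, higher in KO, and at Havcr2, lower in KO, while 9.62% of all gene sums did not overlap, 4.68% with KO above and 4.94% with KO below. The 95% intervals of the fold of KO over WT ran from 0.954 to 1.15 for Tigit, from 0.886 to 1.06 for Cd226 and from 0.932 to 1.13 for Pdcd1, the narrowest of the 9. They were wider where counts were few, from 0.64 to 1.07 for Lag3, from 0.669 to 1.03 for Klrg1 and from 0.613 to 0.902 for Havcr2. WT replicate 4 was the lowest WT library at 8 of the 9 gene sums, and was the lowest at 24.8% of all gene sums tested. The 75 receptor peaks together, on the scale of the tested peaks used for single peaks, had 1648 CPM in it, 1856 to 1935 in the other WT libraries and 1808 to 1917 in KO.

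**Figure D3:**
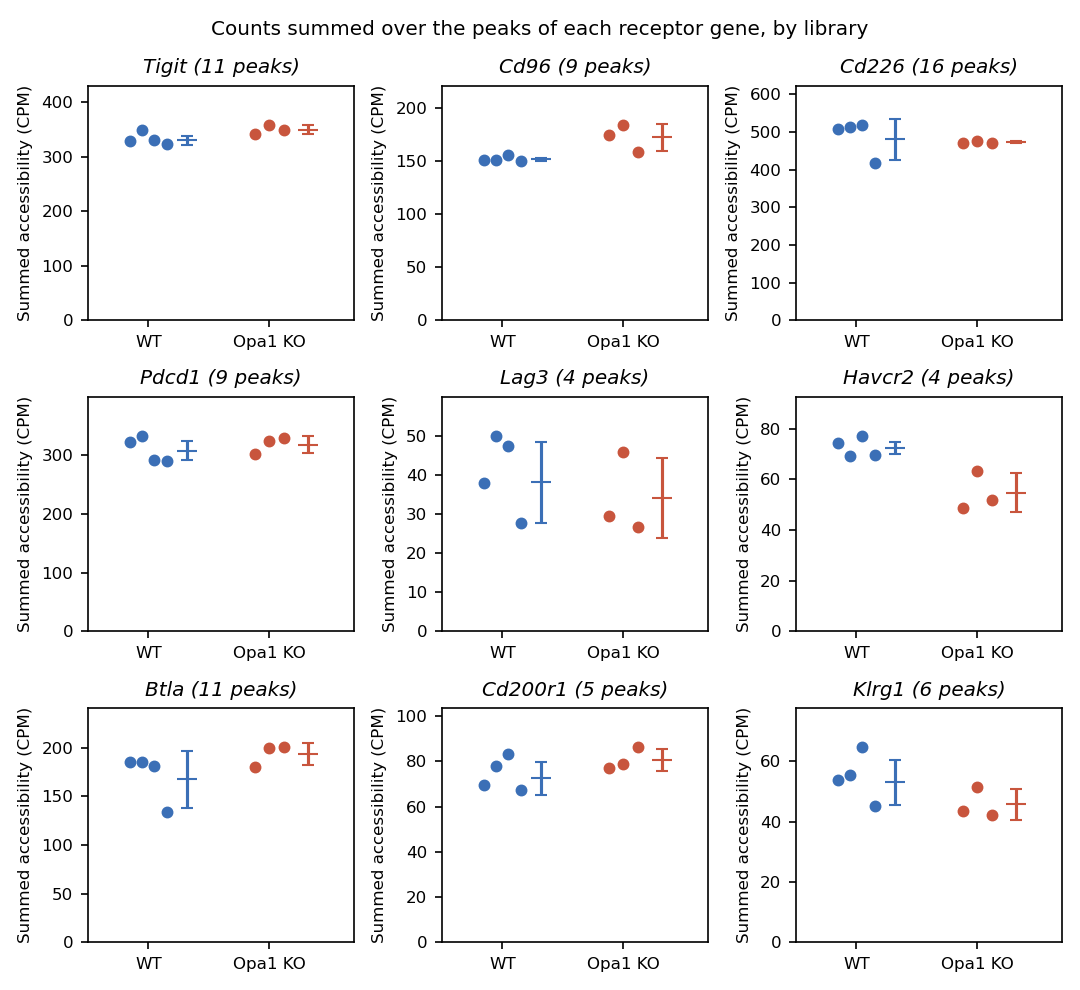
Accessibility summed over the peaks of each receptor gene in CPM (vertical axes from 0) in each of the 4 WT libraries (blue) and 3 KO libraries (red), with mean ± SD in which WT replicates 2 and 3 count as 1 sample. Libraries overlap between groups at 7 genes, KO libraries are all higher at Cd96 and all lower at Havcr2, and WT replicate 4 is far below the other WT libraries at Cd226 and Btla.

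Among the 9 genes the receptors of nectin family ligands stood from the second to the fourth place in density, behind Pdcd1. The Tigit gene sum (chromosome 16, 43626137 to 43665125, 11 peaks) had 329, 349, 331 and 323 CPM in WT replicates 1 to 4 and 341, 358 and 349 in KO replicates 1 to 3. The groups overlapped, and the log2 fold change was 0.07 (SE 0.07, adjusted p = 0.787). With peaks that overlap the gene alone it was 0.18 (adjusted p = 0.457), with peaks up to 10 kb away 0.18 (0.423) and with loess offsets 0.04 (0.922). Its most abundant peak, the one that holds the promoter window printed above (43664010 to 43664665), had 98.8, 96.1, 113 and 106 CPM in WT and 119, 122 and 125 in KO. All KO libraries lay above all WT libraries there, yet the peak was not called (log2 fold change 0.23, SE 0.11, adjusted p = 0.482). The neighbouring peak over the end of the gene (43664916 to 43665190) had 23.7, 27.1, 18.1 and 23.2 CPM in WT and 36.4, 25.3 and 34.5 in KO. KO replicate 2 fell within the WT range, and the log2 fold change was 0.50 (SE 0.22, adjusted p = 0.451). Of the 6 tested peaks in the gene or over its end 3 were above 0 and 3 below, the latter from -0.25 to -0.01, and all 4 outside were below 0. The peak 33765 bp away (43698890 to 43699664) had a log2 fold change of -0.01 (SE 0.12), and the one 43923 bp away had -0.90 (SE 0.43, adjusted p = 0.507). The share of Tigit counts in peaks that touch the gene was 53.0% ± 2.78 in WT and 56.8% ± 4.25 in KO (SD, n = 3), a difference within the spread between libraries (two-sided exact permutation test over the 7 libraries, p = 0.229, adjusted p = 0.571 over the 8 genes with peaks both in and outside the gene). The smallest p that 35 splits allow is 0.0286.

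Cd96 encodes a further receptor of CD155. Its gene sum (chromosome 16, 46035652 to 46120248, 9 peaks) had 151, 151, 155 and 149.98 CPM in WT and 174, 184 and 159 in KO. Every KO library was above every WT library, by a small margin at KO replicate 3. The log2 fold change was 0.18 (SE 0.09, 95% interval -0.00 to 0.36, adjusted p = 0.444). Of its 7 tested peaks 6 had fold changes above 0. The peak over the gene end with the listed start (46120030 to 46120424), the most abundant, had 62.0, 55.5, 79.5 and 58.0 CPM in WT and 63.8, 74.6 and 59.9 in KO, with full overlap (log2 fold change 0.04, SE 0.14). The intragenic peak from 46103122 to 46103442 had 15.5, 14.9, 9.03 and 8.43 CPM in WT and 17.3, 15.2 and 18.3 in KO. KO replicate 2 stood within the WT range (log2 fold change 0.50, SE 0.30, adjusted p = 0.625).

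Cd226 is the activating counterpart of TIGIT and CD96 and had the largest number of peaks, 16. Its gene sum (chromosome 18, 89176954 to 89272232) had 506, 514, 518 and 417 CPM in WT and 471, 476 and 470.4 in KO. Of the WT libraries, 3 were above all KO libraries and WT replicate 4 was below them. The log2 fold change was -0.05 (SE 0.06, adjusted p = 0.863), and -0.12 without WT replicate 4 (adjusted p = 0.551). It was -0.03 without WT replicate 1 and -0.02 without WT replicate 2 or 3. The most open site of all 75 by density, 333 CPM per kb and percentile 99.3 of all tested peaks, lay 16731 bp outside Cd226 (89159822 to 89160223). It had 127, 151, 136 and 125 CPM in WT and 126, 140.3 and 129 in KO. These values overlapped (log2 fold change -0.03, SE 0.10, adjusted p = 0.96). At the peak over the lower-coordinate gene end the log2 fold change was 0.16 (SE 0.21), and from -0.01 to 0.30 without 1 library (lowest without KO replicate 1, highest without WT replicate 2). The smallest p of the locus was at a peak 143 bp outside the other end (89272375 to 89272762), with 15.5, 16.2, 20.5 and 15.8 CPM in WT and 15.4, 7.58 and 14.0 in KO (log2 fold change -0.41, SE 0.30, adjusted p = 0.711). That value was -0.19 without KO replicate 2 and -0.62 without KO replicate 1.

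Pdcd1 encodes PD-1, which recruits the phosphatase SHP-2. Its gene sum (chromosome 1, 94038305 to 94052553, 9 peaks) had 321, 332, 290.4 and 289 CPM in WT and 301, 323 and 328 in KO. The groups overlapped fully (log2 fold change 0.04, SE 0.07, adjusted p = 0.912). The strongest peak, 2515 bp outside the gene, had 193, 184, 176 and 170.2 CPM in WT and 190.4, 177 and 176 in KO. Its log2 fold change was 0.00 (SE 0.09, 95% interval -0.18 to 0.19). The peak over the gene end with the listed start (94052435 to 94052735) had 19.9, 26.4, 22.3 and 16.9 CPM in WT and 15.4, 17.7 and 25.9 in KO (log2 fold change -0.13, SE 0.26). Only a peak 39182 bp away (94091735 to 94092159) had an unadjusted p under 0.05. It had 28.1, 31.1, 22.9 and 23.2 CPM in WT and 28.3, 40.4 and 41.0 in KO, so KO replicate 1 stood within the WT range (log2 fold change 0.45, SE 0.21, adjusted p = 0.483). On the log2 scale the Pdcd1 gene sum turned to -0.18 when only peaks that overlap the gene were kept. It was -0.07 when peaks up to 10 kb away were kept, which include the strongest peak. The SEs were 0.20 and 0.08, and neither sum was called (adjusted p = 0.845 and 0.83). Like the sum over all 9 peaks, these are too imprecise to show a direction.

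**Figure D4:**
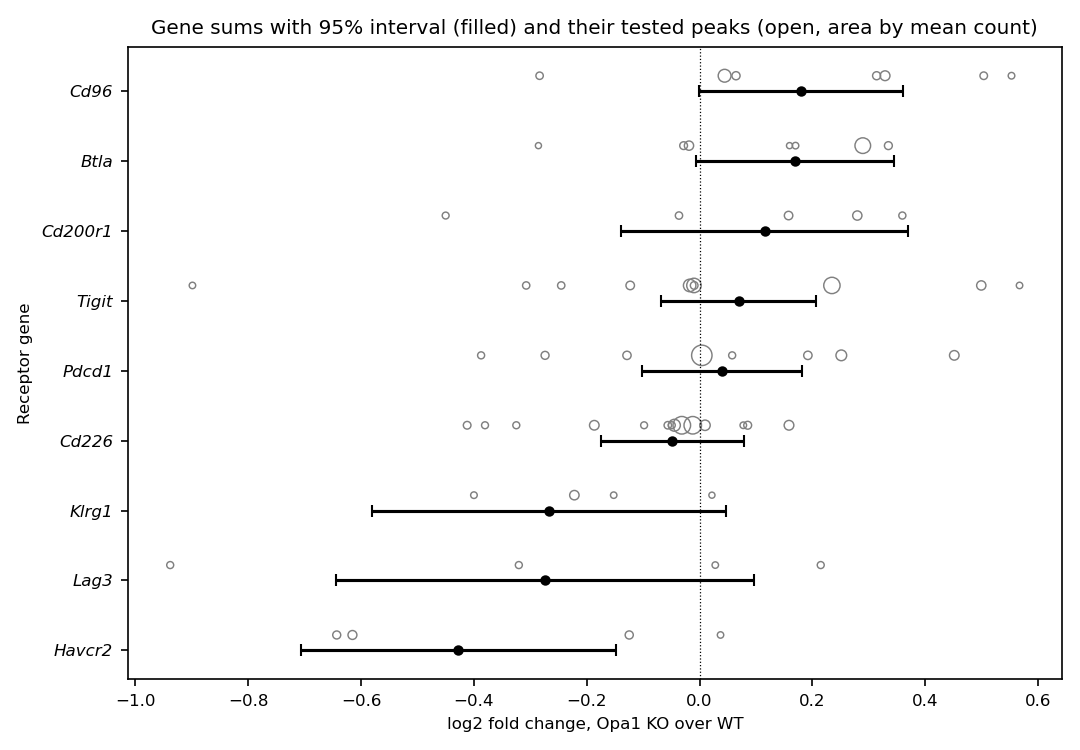
The log2 fold change of KO over WT (horizontal axis) for each receptor gene (rows, ordered by gene sum): filled points with bars are gene sums with their 95% interval, open circles the tested peaks, with area by mean count. Gene sums run from -0.43 at Havcr2 to 0.18 at Cd96, and at each gene tested peaks stand on both sides of 0.

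Havcr2 encodes TIM-3, a receptor of galectin-9 and phosphatidylserine. Summed over the gene (chromosome 11, 46454931 to 46481255), accessibility was 74.5, 69.2, 77.1 and 69.6 CPM in WT and 48.8, 63.3 and 52.0 in KO. All KO libraries lay below all WT libraries, with KO replicate 2 the closest. The log2 fold change was -0.43 (SE 0.14, unadjusted p = 0.00281, adjusted p = 0.161), the lowest of the 9 genes, and it was not called in any of the 19 alternatives (adjusted p from 0.0845 to 0.485). Of its 4 peaks, all within the gene or over its end, 3 had fold changes below 0. The intragenic peak from 46461990 to 46462364 had 30.0, 25.05, 40.9 and 24.2 CPM in WT and 19.1, 24.0 and 16.2 in KO. The groups did not overlap, though KO replicate 2 and WT replicate 4 were close (log2 fold change -0.62, SE 0.24, adjusted p = 0.367). The peak over the listed start (46454592 to 46455061) stayed low in every library, 8.72, 2.71, 7.23 and 8.43 CPM in WT and 8.01, 8.85 and 4.31 in KO. By density it stood at percentile 2.27 of all tested peaks.

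Lag3 encodes a receptor of MHC class II. Its gene sum (chromosome 6, 124904359 to 124912434, 4 peaks) had 37.9, 49.9, 47.3 and 27.8 CPM in WT and 29.5, 45.7 and 26.8 in KO. The groups overlapped (log2 fold change -0.27, SE 0.19, adjusted p = 0.623). Without 1 library that value ran from -0.51 (without KO replicate 2) to -0.15 (without KO replicate 3). It was -0.43 without WT replicate 4, -0.17 without KO replicate 1 or WT replicate 2 and -0.08 with peaks that overlap the gene alone, and was not called in any of these. A peak 470 bp outside the gene (124903616 to 124903889) had 10.7, 17.6, 18.1 and 9.48 CPM in WT and 9.86, 6.32 and 4.31 in KO. KO replicate 1 stood within the WT range (log2 fold change -0.94, SE 0.37, adjusted p = 0.376). The most abundant peak, inside the gene (124911558 to 124911962), had 12.6, 14.9, 13.2 and 7.90 CPM in WT and 7.40, 13.9 and 8.63 in KO (log2 fold change -0.32, SE 0.35). That value was -0.59 without KO replicate 2, -0.49 without WT replicate 4 and -0.11 without KO replicate 1.

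Klrg1 encodes a lectin-like receptor of cadherins. The 6 Klrg1 peaks (gene on chromosome 6, 122270596 to 122282833) summed to 53.7, 55.5, 64.7 and 45.3 CPM in WT and 43.4, 51.6 and 42.1 in KO. KO replicate 2 stood within the WT range (log2 fold change -0.27, SE 0.16, adjusted p = 0.551). Only 1 of its peaks lay in the gene, and no peak covered either end. The most abundant peak, 8912 bp outside (122291745 to 122292158), had 31.97, 27.1, 34.9 and 31.6 CPM in WT and 25.3, 32.9 and 23.7 in KO (log2 fold change -0.22, SE 0.21, adjusted p = 0.802). That value was -0.35 without KO replicate 2 and -0.14 without KO replicate 3. A gene sum of that intragenic peak alone gave a log2 fold change of 0.02 (SE 0.49), too imprecise to show a direction.

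Btla encodes a receptor of HVEM (Tnfrsf14). The 11 Btla peaks (gene on chromosome 16, 45223705 to 45252895) summed to 186, 185, 182 and 134 CPM in WT and 181, 199 and 201 in KO. WT replicate 4 was far below the other libraries, and the log2 fold change fell from 0.17 (SE 0.09, adjusted p = 0.466) to 0.06 without it (adjusted p = 0.888). The most abundant peak (45251719 to 45252424), inside the gene, had 97.4, 107, 103 and 68.0 CPM in WT and 99.2, 120.1 and 126 in KO (log2 fold change 0.29, SE 0.12, adjusted p = 0.43). KO replicate 1 stood within the WT range there, and without WT replicate 4 the value was 0.15 (adjusted p = 0.77). At the peak over the gene end that meets the printed window (45223625 to 45224234) the values were 31.97, 25.05, 25.3 and 28.5 CPM in WT and 29.6, 32.2 and 20.5 in KO (log2 fold change -0.02, SE 0.22).

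Cd200r1 encodes the receptor of CD200, an inhibitory pair best known from myeloid cells. Its gene sum (chromosome 16, 44765736 to 44794977, 5 peaks) had 69.5, 77.9, 83.3 and 67.2 CPM in WT and 77.0, 78.6 and 86.2 in KO. The groups overlapped (log2 fold change 0.12, SE 0.13, adjusted p = 0.814). Its most abundant peak, over the lower-coordinate end of the gene (44765557 to 44765868), had 26.2, 29.8, 22.9 and 23.2 CPM in WT and 26.8, 26.5 and 39.9 in KO, where KO replicate 3 stood apart (log2 fold change 0.28, SE 0.22, adjusted p = 0.741). Without KO replicate 3 the value of the peak was 0.08 and that of the gene sum 0.07, and the gene sum was also 0.07 without WT replicate 4.

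Ligands, signalling partners, related receptors and regulators of such genes were taken as 51 further genes, 46 of them with a tested peak. Of their 299 tested peaks 157 were higher and 142 lower, and edgeR called 1, higher in KO, where 0.0473% of all tested peaks were called higher. An unadjusted p under 0.05 was reached by 29 of the 299 (9.70%, against 9.47% of all tested peaks). By role the called peaks were 1 of 36 for ligands, 0 of 47 for signalling proteins, 0 of 74 for other receptors and 0 of 142 for regulators. Unadjusted p values under 0.05 numbered 4 (11.1%), 4 (8.51%), 9 (12.2%) and 12 (8.45%), and the medians of the log2 fold change were 0.07, 0.08, 0.08 and -0.04. DESeq2 and limma-voom each called 1 of the 299 as well. The smallest p among the signalling proteins was within Fyn, a kinase of T cell receptor signalling (chromosome 10, 39522031 to 39522397). It had 13.6, 13.5, 13.2 and 10.5 CPM in WT and 19.4, 19.0 and 23.2 in KO (log2 fold change 0.69, SE 0.28, adjusted p = 0.403). Among the other receptors it was at a peak within Cd200r3 (chromosome 16, 45021523 to 45021762), a paralog of Cd200r1, with 8.72, 14.2, 2.41 and 10.01 CPM in WT and 17.3, 16.4 and 19.4 in KO. All KO libraries lay above WT, and the peak was not called (log2 fold change 1.008, SE 0.34, adjusted p = 0.282). No tested peak of the regulators (Tox, Nr4a1, Prdm1, Maf and others) was called. The smallest p there was at a peak 16216 bp outside Tcf7, with all KO libraries below WT (log2 fold change -0.44, adjusted p = 0.251). Of the 14 regulator gene sums 2 were higher in KO, 3 had an unadjusted p under 0.05 and 0 were called. Over the 47 gene sums of all lists 23 were higher and 6 had such a p. Among all gene sums tested these shares were 49.9% and 11.4%.

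The called ligand peak lay in Cd200, the ligand gene of CD200R, 594769 bp from Cd200r1 and 136851 bp from Btla (chromosome 16, 45389746 to 45390183). It had 43.6, 39.3, 56.6 and 34.8 CPM in WT and 61.9, 77.1 and 73.9 in KO. All KO libraries were higher, and the peak rose from 42.1 ± 6.70 to 71.0 ± 7.995 CPM (SD, n = 3; log2 fold change 0.69, SE 0.16, adjusted p = 0.0454). The call was lost with the replicate number as a block (adjusted p = 0.276), with total counts as the only scaling (0.0604), with loess offsets (0.0808) and without any library other than WT replicate 3 (0.0680 without KO replicate 1, 0.0794 without WT replicate 2, 0.149 to 0.221 without the others). A peak 455 bp away (45388987 to 45389291), chosen after its values were seen, went the other way, with 9.69, 8.80, 21.1 and 15.3 CPM in WT and 7.09, 8.22 and 9.17 in KO (log2 fold change -0.76, SE 0.36, adjusted p = 0.488). The Cd200 gene sum had 153, 186, 190.2 and 159 CPM in WT and 205, 226 and 209 in KO (log2 fold change 0.31, SE 0.09, adjusted p = 0.0681).

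Of the 47 gene sums of the same lists 1 was called, higher in KO, where 0.0978% of all gene sums tested were called higher. It was Cd200r3, known from basophils and mast cells, and its gene sum is given after its values were seen. It had 290.1, 317, 263 and 284 CPM in WT and 354, 354 and 363 in KO, all above WT. The gene sum rose from 288 ± 3.395 to 357 ± 5.42 CPM (SD, n = 3; log2 fold change 0.31, SE 0.07, adjusted p = 0.0148). The averaged WT replicates 2 and 3 were the highest and lowest WT libraries, so this SD is narrower than their spread. The call was lost with the replicate number as a block (adjusted p = 0.0517) and without WT replicate 3 (0.0958), WT replicate 4 (0.0525), KO replicate 1 (0.0961) or KO replicate 3 (0.148). Of its 11 tested peaks 10 were higher in KO and none was called. Cd200r2 and Cd200r4 had 1 and 2 peaks, with log2 fold changes of 0.36 (SE 0.30) and 0.14 (SE 0.26). Paralogs of this family share sequence, and the sources used here do not say how reads that fit several copies were counted.

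Tigit, Cd200r1, Btla and Cd96 lie on chromosome 16, as does Opa1, from 14.0 to 16.5 Mb beyond its end. Their 29 tested peaks had a median log2 fold change of 0.06 with 16 above 0, and the 34 peaks of the other 5 genes had -0.05 with 13 above 0. The 205 tested peaks between 40 and 50 Mb of chromosome 16, which include these, had a median of 0.06 with 120 above 0 (58.5%, against 49.8% of all tested peaks). An unadjusted p under 0.05 was reached by 15.1% of them, against 9.47% of all tested peaks, and 1 was called (0.0867% of all). Within 2 Mb of each gene that share was 17.3% to 19.4% for the 4 genes of chromosome 16, in windows that overlap, and 3.03% to 14.7% for the others. The stretch and those 4 windows all hold the peaks of Cd200 and Cd200r3. Their bounds were set round receptor genes that were chosen with earlier results known, and no test of the stretch was run. At Cd200 9 of 11 tested peaks were above 0 and 4 had an unadjusted p under 0.05. At Cd200r3 these counts were 10 of 11 and 4. The called peak in those windows was the Cd200 peak, and the windows of Cd226, Pdcd1, Lag3, Havcr2 and Klrg1 held none. Since the floxed Opa1 allele is on this chromosome, loss of Opa1 and other differences carried with that allele cannot be told apart here.

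**Figure D5:**
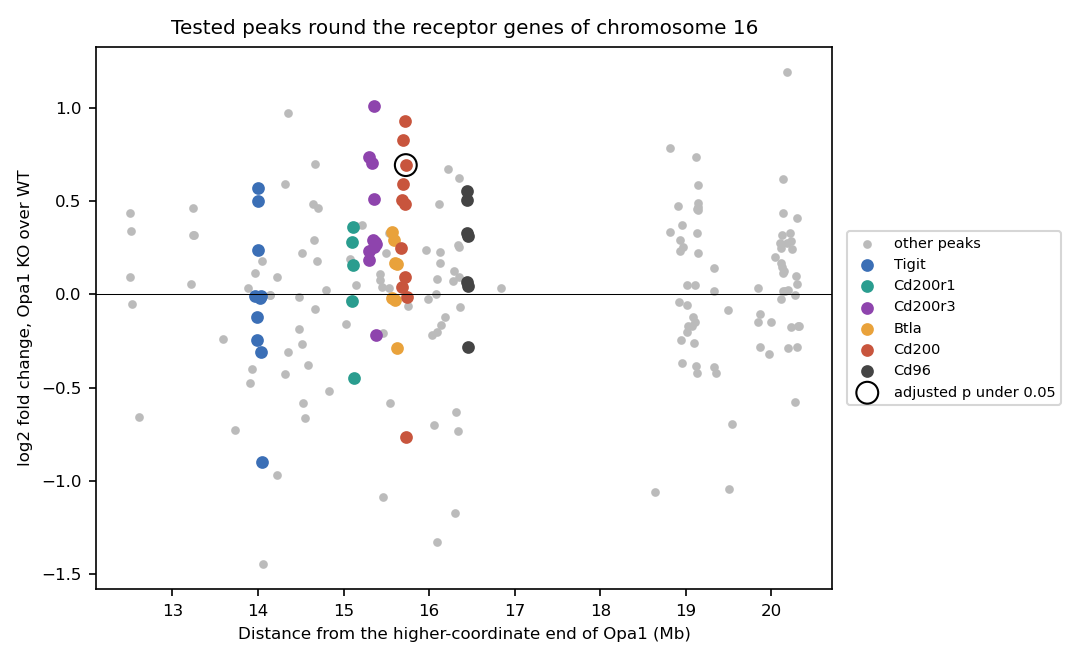
The log2 fold change of KO over WT (vertical axis) for the 205 tested peaks between 40 and 50 Mb of chromosome 16 against their distance in Mb from the higher-coordinate end of Opa1 (horizontal axis); colours mark peaks of Tigit, Cd200r1, Cd200r3, Btla, Cd200 and Cd96, and the ring marks the only peak with an adjusted p under 0.05, in Cd200. Of the Cd200r3 peaks 10 of 11 lie above 0, while Tigit and Cd200r1 have peaks on both sides.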

How the data were processed

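Per the submitters' processing notes, the build was mm10 and the tools named were MACS2 2.1.1, BWA 0.7.16, bedtools 2.25.0, Trimmomatic 0.36, SAMtools 1.9 and Picard 2.9.4. The authors deposited 1 table of raw read counts per peak over a shared peak set for the 7 libraries, with no normalization. The sources used here do not say whether peaks were called on pooled libraries or how reads were counted.

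Peaks were assigned to the protein-coding genes of the RefSeq table of GRCm38.p6, by overlap or else to the nearest gene end within 100 kb, and counts were summed per gene. A peak over several genes entered each sum. Peaks and gene sums were tested with edgeR 4.0.16 (R 4.3.3): filterByExpr with a minimum count of 10 and a total of 15, TMM scaling, the robust quasi-likelihood test of KO against WT, and Benjamini-Hochberg adjustment over all 38041 peaks or 13290 gene sums, called at 0.05. The SE is the log2 fold change over the square root of F. DESeq2 1.42.0, limma 3.58.1 (voom), other scalings and filters, halved counts, a replicate block and leaving out each library were alternatives. Fits were also run on counts simulated from the fitted model itself, which cannot show whether that model suits these libraries. p-values measure the spread between these libraries, at totals of 1534394 to 3384325 counts.

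The receptors, gene lists and motifs were chosen with earlier results of these data known. For each receptor the text names the peak with the highest mean count, the peak with the smallest p and the peaks over a gene end, and for each pathway list the called peaks or else the smallest p. Other peaks given are said to be chosen after their values were seen or describe the sites outside Tigit. Coordinates are those of the deposited table (mm10). The values of 1 marker list are not reported here.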

Additional observations from a re-analysis of the deposited data

Results flagged for a closer look

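In 3 of 27 sets of 4 WT libraries, 1 library lay farther from the rest than Dixon's 95% critical value. The sets were the 9 gene sums and 18 named peaks that are parts of them, so they are not independent. The rate of about 1 in 20 that chance gives for independent sets therefore cannot be set against this count. The Cd226 gene sum had 417 CPM in WT replicate 4 and 506 to 518 in the other WT libraries. The Btla gene sum had 134 CPM in WT replicate 4 and 182 to 186 in the others. The Cd226 peak from 89272375 had 20.5 CPM in WT replicate 3 and 15.5 to 16.2 in the others. The cause was not tested.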

How the results depend on the processing

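No receptor peak and no receptor gene sum was called under any alternative run, and 7 of the 9 gene sums and 11 of the 18 named peaks kept their direction throughout. The count of called peaks over all peaks, 33, became 55 with DESeq2, 55 with limma-voom, 60 above a mean count of 20, 82 with halved counts, 13 with the replicate block, and 15 to 43 without 1 library (15 without KO replicate 1, 16 without KO replicate 3, 18 without WT replicate 1). The 18 higher and 15 lower became 14 and 23 when scaled by total counts and 12 and 25 with loess offsets. The 46 called gene sums became 18 with DESeq2, 82 with halved counts, 23 with the replicate block, and 8 to 67 without 1 library (8 without KO replicate 3, 12 without KO replicate 1, 24 without WT replicate 1, 27 without WT replicate 4, 30 without WT replicate 3). The 1 called pathway peak became 0 with total counts, with loess offsets and with the replicate block, and 0 to 1 without 1 library. Same-numbered WT and KO libraries had correlations of -0.01, -0.03 and 0.01 of their deviations over 11332 peaks. The other pairs ran from -0.05 to 0.06. A pairing that moved few peaks would not show in these values, so they cannot decide whether the numbers pair the samples.

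These log2 fold changes turned sign, none of them called. The Pdcd1 gene sum was -0.175 with peaks that overlap the gene and -0.0706 within 10 kb, and the Klrg1 gene sum was 0.0158 with peaks that overlap the gene. The Pdcd1 peak from 94034903 was -0.0236 with total counts, -0.0662 with loess offsets, -0.0235 above a mean count of 20, -0.0203 with halved counts and -0.0274 with the replicate block. The Cd96 peak from 46120030 was -0.0127 with loess offsets, and the Havcr2 peak from 46454592 was -0.0333 with WT replicates 2 and 3 summed. Without 1 library the values ran from -0.03 to 0.162 for the Cd96 peak from 46120030, -0.0732 to 0.0165 for the Cd226 peak from 89159822, -0.0104 to 0.297 for the Cd226 peak from 89176612, -0.0331 to 0.037 for the Pdcd1 peak from 94034903, -0.365 to 0.0561 for the Pdcd1 peak from 94052435, -0.206 to 0.28 for the Havcr2 peak from 46454592 and -0.115 to 0.147 for the Btla peak from 45223625. The causes were not tested. At this depth 12 of the 75 receptor peaks were too low to test.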
